A study of Mus musculus with 18 samples.

Results

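The genes described here are 34 genes of the endoplasmic reticulum (ER) that fold new proteins, move them into the ER, clear misfolded ones or sense folding load. They were taken by symbol from a table of reads counted over coding sequences, where they were 34 of 20655 gene rows. The list names them by role and not by a measured value, and it was drawn up with earlier results of these data known. By role they were 10 lumenal HSP70 and HSP90 chaperones with their co-factors, 2 lectin chaperones, 6 disulfide and proline isomerases, 3 sensors or transcription factors of the unfolded protein response, 6 factors of ER-associated degradation and 7 parts of the translocon and its associated complex. The data came from basal cells enriched from mouse epidermis. Embryos were injected in utero at E9.5 with shRNA vectors, and epidermis was taken at E18.5, both embryonic days. It was separated from the dermis with dispase and dissociated with trypsin, with cycloheximide present throughout. Each of 3 conditions had 3 ribosome footprint libraries and 3 RNA libraries, 18 in all.

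WT shScram embryos carried no HrasG12V allele and received the scrambled shRNA. Per the labels their strain held a reporter at the Gt(ROSA)26Sor locus, tdTomato changing to EGFP, and the genotype of 1 WT footprint library was written as Rosa26. HrasG12V shScram embryos were FR-HrasG12V mice, which carry an activated Hras allele, with the scrambled shRNA, and HrasG12V shEif2b5 embryos were FR-HrasG12V mice with an shRNA against Eif2b5, a subunit of the initiation factor eIF2B. The 2 strains differ between the genotypes, so strain and HrasG12V cannot be told apart, and no WT group with the Eif2b5 shRNA was analysed here. The cells were bulk populations, so a change in the share of a cell type and a change in RNA per cell cannot be told apart. The labels do not say that libraries came from separate animals, so p-values measure the spread between these libraries only.

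Proteins bound for secretion or the membrane enter the ER through the Sec61 channel, and the translocon-associated protein complex, made of Ssr1 to Ssr4, assists entry of some of them. In the lumen BiP (Hspa5), GRP94 (Hsp90b1), the lectins calnexin and calreticulin and the protein disulfide isomerases fold them, and those that fail are returned to the cytosol and degraded. When unfolded protein accumulates, IRE1 (Ern1) splices Xbp1 mRNA, ATF6 is cleaved to a transcription factor and PERK phosphorylates eIF2, whose exchange factor is eIF2B. XBP1 and ATF6 switch on chaperone genes through the ER stress response element, ERSE, found in their promoters. Counts per gene do not show the splicing of Xbp1.

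That element is shown here as a known feature of chaperone gene promoters, although most members with a promoter held no match to it. RefSeq promoters (GRCm38.p6, 250 bases before to 50 bases after the start) matched 28 of the 34 members. The letters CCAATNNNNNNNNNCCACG, searched on both strands, were in 8 of these 28 promoters (28.6%) and in 37 of 27025 gene symbols with a promoter (0.137%). The related ERSE-II, ATTGG and CCACG separated by any 1 base, was in 2 of 28 (7.14%) against 12 of 27025 (0.0444%), and no member held both. Capitals mark the fixed letters of each element, and each run is read 5′ to 3′ on the strand given.
Hspa5, chr2:34772020-34772048, plus strand: cttcaCCAATcggaggcctCCACGacggg
Hsp90b1 distal, chr10:86705633-86705661, minus strand: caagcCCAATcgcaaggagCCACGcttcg
Hsp90b1 proximal, chr10:86705528-86705556, plus strand: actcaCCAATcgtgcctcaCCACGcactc
Calr, chr8:84847070-84847098, plus strand: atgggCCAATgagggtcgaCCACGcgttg
Pdia6, chr12:17266486-17266514, plus strand: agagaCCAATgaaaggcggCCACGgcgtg
Creld2, chr15:88819515-88819543, minus strand: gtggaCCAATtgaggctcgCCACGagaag
Herpud1 (ERSE-II), chr8:94386372-94386392, plus strand: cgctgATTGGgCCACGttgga
Dnajb11 (ERSE-II), chr16:22857847-22857867, plus strand: cggcgATTGGcCCACGcctgg

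Canx, Dnajc3 and Syvn1 also held an ERSE. The element of Hspa5 began 65 bases before the RefSeq start and that of Syvn1 44 bases before it, while Dnajb11's lay 8 to 18 bases after its start. Of the ERSEs, those of Calr, Creld2 and the proximal one of Hsp90b1 ran on the strand opposite to the gene. The 5 letters CCAAT alone, which occur within the ERSE, were in 78.6% of member promoters and 41.1% of all symbols. The core TGACGTG was in 1 member promoter, that of Hspa5, and in 2.22% of symbols. A match describes the letters in this window and not the binding of a factor.

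Counts assigned to genes totalled 3319175 to 4933298 per footprint library and 1771365 to 5505386 per RNA library. RNA depth was uneven between the conditions: HrasG12V shScram libraries 1 and 3 and WT shScram library 3 held 5214473, 4310239 and 5505386 counts, and no other RNA library more than 2812627. The footprint level of Eif2b5 itself, the shRNA's target, was 85.5 ± 8.82 CPM (SD, n = 3; counts scaled to a common library total) in HrasG12V shEif2b5 and 95.8 ± 5.76 in HrasG12V shScram (log2 difference -0.16, edgeR adjusted p = 0.994). Its RNA level was 135 ± 7.49 CPM and 220 ± 146 CPM (-0.68, adjusted p = 0.257). Hras, whose counts cannot separate the mutant allele, differed by 0.04 in footprints (adjusted p = 0.95) and -0.14 in RNA (adjusted p = 0.623) between HrasG12V shScram and WT shScram. Basal keratinocyte markers, 7 of 7 detected, summed to between 8569 and 17141 CPM in the RNA libraries, and spinous markers to more than that in each, so the enriched basal cells came with suprabasal RNA.

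In WT shScram the 34 genes took 0.467 ± 0.0172% of RNA counts and 1.2 ± 0.0467% of footprint counts (SD, n = 3). Scaled by coding length as well as library total (RPKM), the highest RNA levels were those of Calr, a calcium-binding lectin chaperone, at 374 ± 26.3, of P4hb, the founding protein disulfide isomerase, at 367 ± 17.6, and of Ppib, a lumenal proline isomerase, at 362 ± 28.9. These 3 means lay within each other's SD. Lowest were Dnajb9, a J-domain co-factor of BiP, at 4.44 ± 0.987, the sensor Ern1 at 6.42 ± 1.48 and the sensor Atf6 at 14.7 ± 1.46. Footprint levels, on the same per-length scale, were highest for the thiol isomerase Pdia3 (972 ± 91.5), Calr (928 ± 86.4) and Hsp90b1 (675 ± 13.9), and lowest for Ern1 (3.68 ± 0.203), Edem1 (7.71 ± 1.64) and Atf6 (18.8 ± 2.38). Pdia3 and Calr did not differ beyond their SD.

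The members carried more footprints per RNA count than most genes. In WT shScram, 33 of 34 had at least 10 CPM in both library kinds; the log2 ratio of footprint CPM to RNA CPM had a median of 0.88 over them, and 0.07 over the 8194 genes at that level. Of the 33 members, 26 lay above the median of all genes, 17 above the 75th percentile and 9 above the 90th. Highest were Ssr3 (2.41, range over pairs of libraries 1.85 to 3.09), Hsp90b1 (2.11, range 1.96 to 2.31) and Ssr2 (1.98, range 1.45 to 2.40). The lowest ratios were those of Edem1, a mannosidase-like factor of degradation (-1.87, range -2.28 to -1.48), Ern1 (-0.80) and Xbp1 (-0.44). The ratio compares 2 kinds of library, each on its own total, so it ranks genes within a condition and is not an absolute rate.

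**Figure D1:**
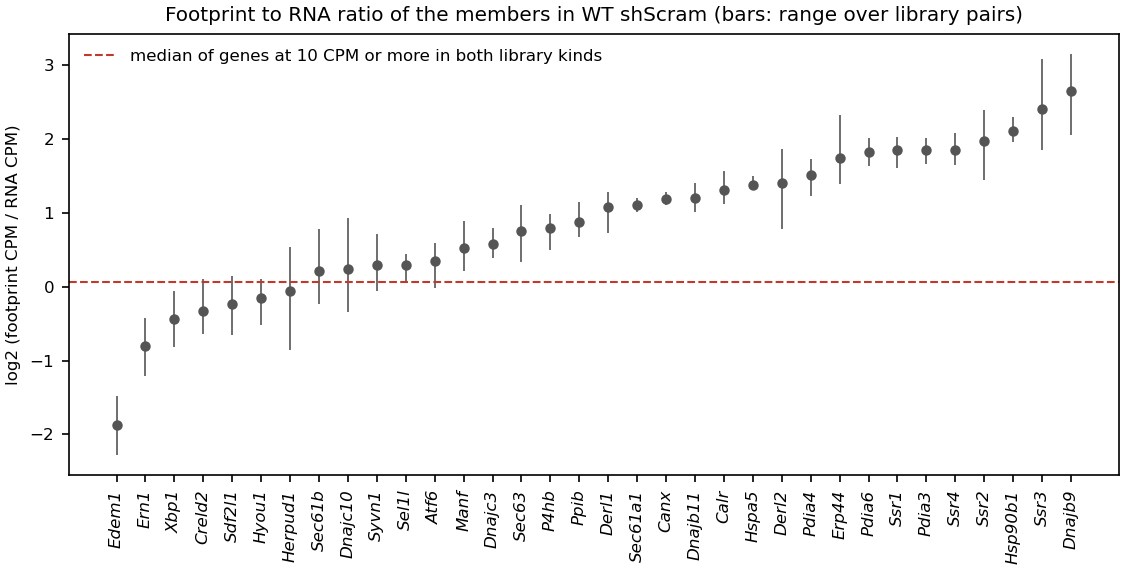
Log2 ratio of footprint CPM to RNA CPM (y axis) for the 34 members in WT shScram, in rising order along the x axis; points use group means, bars span the ratios over pairs of libraries, and the dashed line is the median of 8194 genes. Translocon-associated subunits and isomerases stand at the right, with Hsp90b1 at 2.11, and Edem1 at -1.87 is lowest; Dnajb9, at 2.65, had under 10 CPM of RNA.

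Grouped by role, the median log2 ratio in WT shScram was 1.85 for the 7 translocon parts and 1.63 for the 6 isomerases. It was 1.25 for the lectins Calr and Canx, 0.52 for 9 lumenal chaperones and co-factors, 0.29 for the degradation factors and -0.44 for the sensors. The members also ranked high within the other conditions. In HrasG12V shScram their median was 0.97 (all genes 0.07), with 19 of 33 above the 75th percentile of genes, 5 of the 7 translocon parts and 6 of the 6 isomerases among them. In HrasG12V shEif2b5 it was 0.93 (all genes 0.08), with 17 of 32 above that percentile, again 5 and 6 of these roles among them.

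In HrasG12V shScram the members as a group had higher RNA levels than in WT shScram and, by smaller amounts, higher footprint levels. Their summed RNA level ran from 4614 to 4881 CPM over the 3 WT shScram libraries, from 5626 to 6127 with HrasG12V and the scrambled shRNA, and from 4693 to 5314 with the Eif2b5 shRNA. Every HrasG12V shScram library lay above all libraries of the other groups, including number 2, the one with the fewest counts. The summed footprint level was 11153 to 11592 CPM in WT shScram, 12464 to 13570 in HrasG12V shScram and 11431 to 12695 in HrasG12V shEif2b5, where library 1 overlapped HrasG12V shScram. Since abundant genes set a sum, the median over members of log2 CPM relative to the WT shScram mean was also taken: it was 0.30, 0.24 and 0.32 in the RNA libraries 1, 2 and 3 of HrasG12V shScram, against -0.06, 0.04 and -0.02 in WT shScram and 0.12, 0.03 and -0.11 in HrasG12V shEif2b5. In footprints it was 0.16, 0.10 and 0.13 in HrasG12V shScram, against 0.04, -0.01 and -0.03 in WT shScram and 0.03, -0.07 and -0.05 in HrasG12V shEif2b5.

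**Figure D2:**
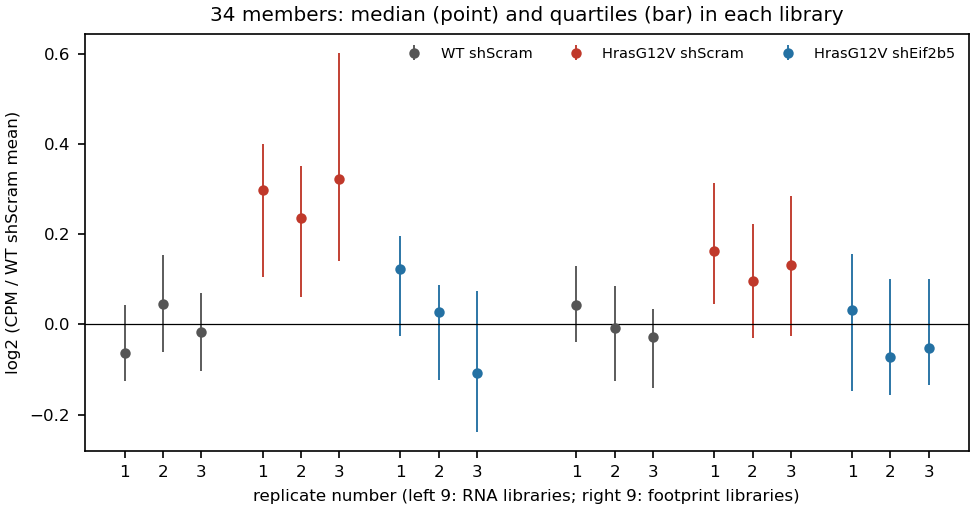
Median (point) and quartiles (bar) over the 34 members of log2 CPM relative to the WT shScram mean, one position per library, RNA libraries on the left and footprint libraries on the right of the x axis. The 3 HrasG12V shScram RNA libraries lie at 0.24 to 0.32 and the 3 footprint libraries at 0.10 to 0.16, above every library of the other conditions of their kind.

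At the level of single genes, 6 of the 34 members rose in RNA in HrasG12V shScram against WT shScram and none fell. A gene was called when its edgeR quasi-likelihood p, adjusted over all tested genes, was under 0.05; of 11096 genes, 7.7% were called in this comparison, 4.65% higher. The 6 were Ssr4, Ssr2, Ssr1, Hsp90b1, Erp44 and Pdia4. The median log2 fold change was 0.24 over the members and 0.01 over all genes, 30 members were above 0 (50.8% of all genes), and for 17 members every HrasG12V shScram library exceeded every WT shScram library (13.7% of all genes). Without HrasG12V shScram RNA libraries 1 and 3 no member was called and the median was 0.25; that fit leaves 1 RNA library in the group, assumed to vary like those of the other groups. With an offset for coding GC content and length 2 were called, Ssr2 and Ssr4, and the median was 0.21. Leaving out 1 library gave 1 call without HrasG12V shScram 1, WT shScram 1 or WT shScram 2. It gave 2 calls without HrasG12V shScram 3 or WT shScram 3, and 10 without HrasG12V shScram 2. Ssr4 was called in all 6 of these fits. The share of all genes called in each alternative fit is not given here. These counts therefore do not separate the members from genes at large.

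With the Eif2b5 shRNA, 7 members fell in RNA against HrasG12V shScram and none rose: Ssr4, Ssr2, Erp44, Ssr1, Pdia3, Pdia4 and Dnajb9. Over all genes 13% were called, 7.79% lower and 5.23% higher. The median was -0.20 over the members and -0.01 over all genes, and 28 members were below 0 (50.5% of all genes). In 14 members every HrasG12V shEif2b5 library lay under every HrasG12V shScram library (15.2% of all genes), and in 1, Creld2, above (13.4%). Both RNA comparisons use the same HrasG12V shScram libraries, so a deviation of those 3 libraries enters both with opposite sign. Without HrasG12V shScram RNA libraries 1 and 3, which leaves 1 RNA library in that group, the median was -0.20. With the GC and length offset 3 members were called (Pdia4, Ssr2 and Ssr4), and the median was -0.14. The count was 2 without HrasG12V shEif2b5 library 3, 4 without HrasG12V shScram library 3 and 11 without HrasG12V shScram library 2. Shares of all genes called in these fits are not given here either.

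**Figure D3:**
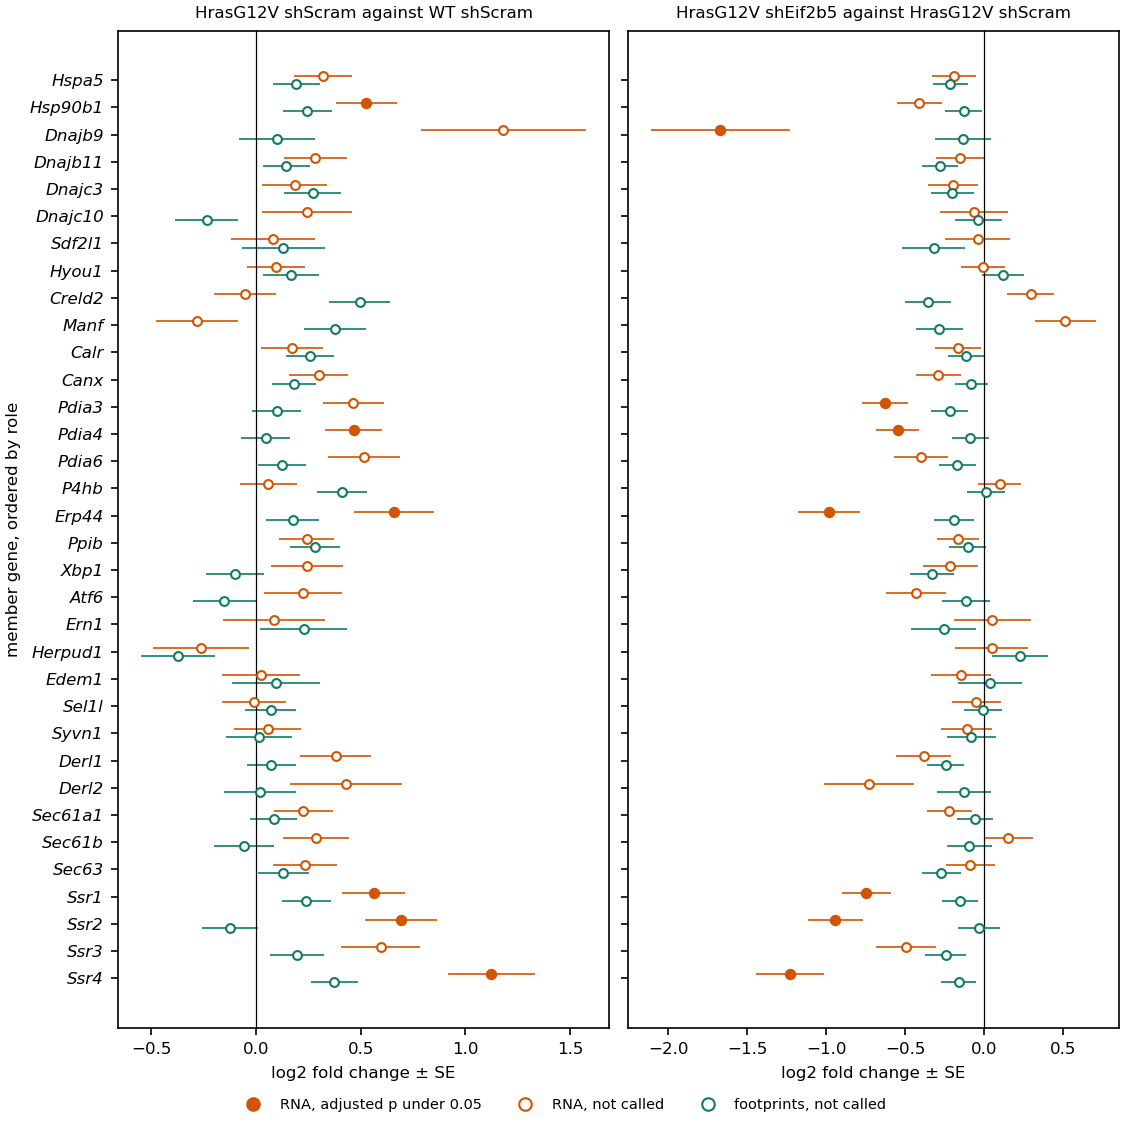
Log2 fold change with SE (x axis) of the 34 members (y axis, by role) in RNA and footprints, for HrasG12V shScram against WT shScram (left) and HrasG12V shEif2b5 against HrasG12V shScram (right); filled points had an adjusted p under 0.05. The 6 filled points on the left and 7 on the right are all RNA values, and Ssr4 is at 1.12 and -1.23; the panels share the HrasG12V shScram libraries.

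None of the footprint differences of single members was called in either comparison. In HrasG12V shScram against WT shScram edgeR called 1.7% of 11448 genes. Of the members, 6 had an unadjusted p under 0.05, all higher (7.53% of genes). DESeq2 called 1 member, P4hb. Shares of genes called are from edgeR throughout, and those for DESeq2 are not given. The median was 0.13 (all genes -0.01), 28 members were above 0 (48% of genes), and 13 had every HrasG12V shScram library above every WT shScram library (10.4% of genes). Without WT shScram footprint library 3, 3 members were called higher (Creld2, Manf and P4hb) and 1 lower (Herpud1). With the Eif2b5 shRNA against HrasG12V shScram none of the members, and 0% of all genes, passed in edgeR; 4 members had an unadjusted p under 0.05, all lower (1.67% of genes), and DESeq2 called 0 members. There the median was -0.13 (all genes 0.00), 30 members were below 0 (49.9% of genes) and 9 had separate groups, all lower (5.59% of genes).

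The largest called rises with HrasG12V were in the translocon-associated protein complex. For Ssr4 (chrX:73787028-73790830, plus strand, mm10), RNA levels were 26.7, 25.6 and 21.9 CPM in WT shScram, 57.1, 35.5 and 64.3 in those of HrasG12V shScram and 19.6, 24.8 and 24.0 in those of HrasG12V shEif2b5. All 3 HrasG12V shScram libraries were above the other 6, and library 2 was the lowest of them. Ssr4 rose by 1.12 ± 0.21 (log2 ± SE, adjusted p = 0.00514) with HrasG12V and fell by 1.23 ± 0.21 (adjusted p = 0.00345) with the Eif2b5 shRNA. Against HrasG12V shScram library 2 alone these values were 0.54 ± 0.27 (adjusted p = 0.421) and -0.64 ± 0.27 (adjusted p = 0.382), and with the GC and length offset 0.97 and -1.10, both called. Its footprints were 92.9, 92.3 and 83.9 CPM, then 118, 119 and 111 CPM, then 104, 102 and 106 CPM, with no overlap between the 3 groups, and the footprint differences of 0.37 ± 0.11 and -0.16 ± 0.11 were not called (adjusted p = 0.114 and 0.994).

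Ssr2 (chr3:88575876-88588419, plus strand) had 44.9, 47.4 and 58.2 CPM of RNA in WT shScram, 92.0, 77.2 and 75.5 in HrasG12V shScram, and 49.97, 42.9 and 34.3 in HrasG12V shEif2b5. The HrasG12V shScram group stood apart, and the differences of 0.69 ± 0.17 and -0.94 ± 0.17 were called (adjusted p = 0.0219 and 0.00452). Against library 2 alone they were of like size, 0.61 ± 0.23 and -0.85 ± 0.23, and not called (adjusted p = 0.286 and 0.161). Ssr2 footprints, at 237, 198 and 159 CPM in WT shScram, 177, 193 and 175 in HrasG12V shScram and 171, 172 and 189 in HrasG12V shEif2b5, overlapped in every comparison (log2 -0.12 and -0.03, adjusted p = 0.736 and 0.994). Ssr1 (chr13:37966605-37994217, minus strand) had 97.1, 85.9 and 86.6 CPM of RNA, then 124, 114 and 158, then 72.9, 85.8 and 78.4. It rose by 0.56 ± 0.15 (adjusted p = 0.0331) and fell by 0.74 ± 0.15 (adjusted p = 0.00761), and its HrasG12V shEif2b5 libraries lay just under those of WT shScram. With the offset these values were 0.31 (adjusted p = 0.209) and -0.45 (adjusted p = 0.0548), and against library 2 alone 0.35 (adjusted p = 0.458) and -0.53 (adjusted p = 0.308). Ssr1 footprints were 349.7, 296 and 329 CPM, then 417, 375 and 358, then 363, 318 and 355, with HrasG12V shScram above WT shScram in all libraries (0.24 ± 0.12, adjusted p = 0.355). Ssr3, the remaining subunit, had 54.6, 59.8 and 36.2 CPM, then 63.0, 72.2 and 88.9, then 50.3, 55.7 and 53.1, with values of 0.60 ± 0.19 and -0.50 ± 0.19 that were not called (adjusted p = 0.0626 and 0.0904).

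**Figure D4:**
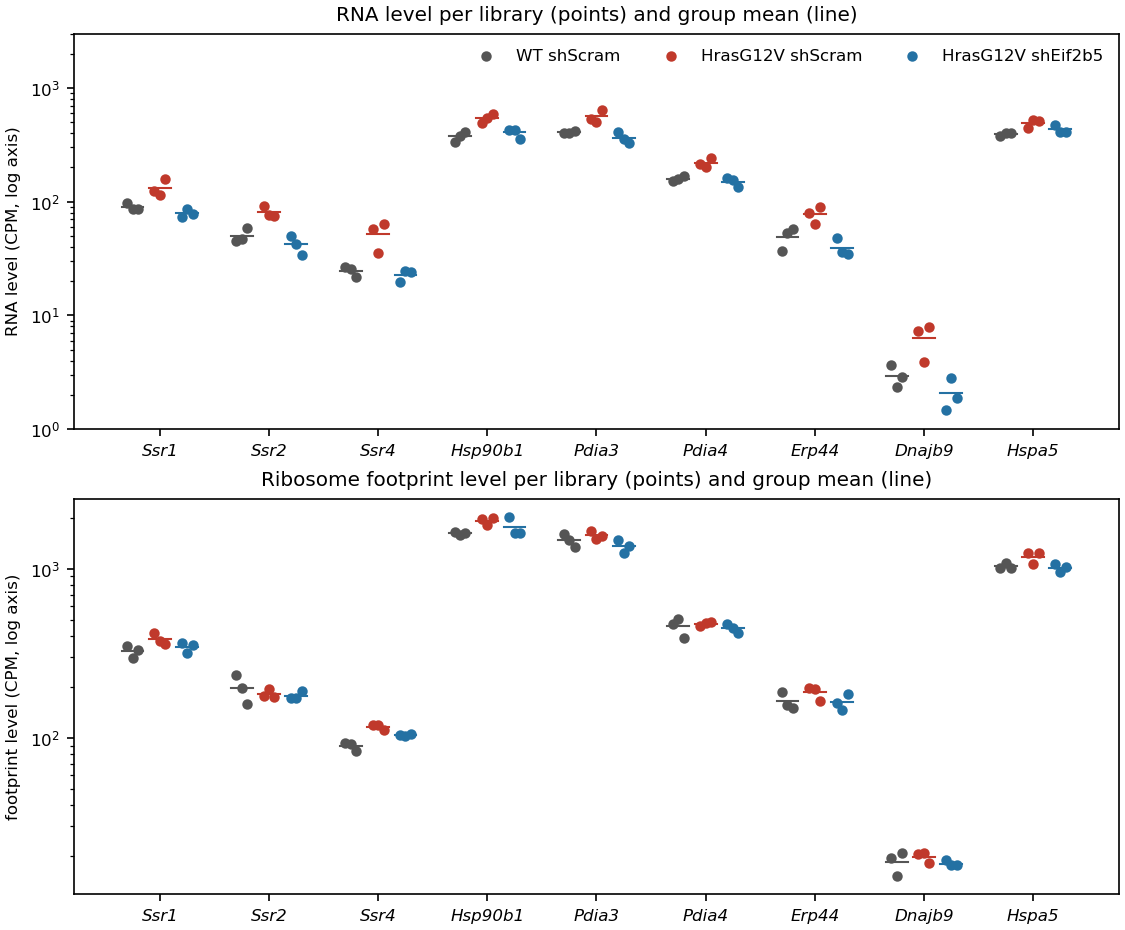
RNA (top) and footprint (bottom) levels in CPM on log axes for the 8 members called in any comparison and Hspa5 (x axis); points are libraries, coloured by condition, and lines are group means. In RNA the HrasG12V shScram points of Ssr4 lie at 35.5 to 64.3 above all others, while in footprints the conditions differ little on this axis.

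The channel subunits among the members, and their partner, were not called in RNA. Sec61a1, the pore subunit, was 0.23 ± 0.14 higher with HrasG12V (adjusted p = 0.331), Sec63, a partner that recruits BiP, 0.24 ± 0.15 (adjusted p = 0.35), and Sec61b, a small tail-anchored subunit, 0.29 ± 0.16 (adjusted p = 0.258). With the Eif2b5 shRNA against HrasG12V shScram they were -0.22, -0.09 and 0.15. Over the 7 translocon members the RNA median was 0.56 with HrasG12V (3 called higher, beside 4.65% of all genes). With the shRNA it was -0.50 (3 called lower, beside 7.79% of all genes). The footprint medians were 0.13 and -0.15, in that order.

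Among the lumenal chaperones, 1 of 10 was called higher in RNA with HrasG12V, beside 4.65% of all genes. Hsp90b1, GRP94, the ER's HSP90 (chr10:86690209-86705509, minus strand), had 335, 382 and 409 CPM in WT shScram, 495, 540 and 588 in HrasG12V shScram and 431, 430 and 359 in HrasG12V shEif2b5. The HrasG12V shScram libraries were above all others, with a rise of 0.53 ± 0.14 (adjusted p = 0.0365), and the difference of -0.41 ± 0.14 with the shRNA was not called (adjusted p = 0.0682). The HrasG12V value was 0.27 ± 0.13 with the GC and length offset (adjusted p = 0.257) and 0.53 ± 0.18 against library 2 alone (adjusted p = 0.23). Its footprints were 1657, 1590 and 1627 CPM, then 1968, 1805 and 2002, then 2030, 1618 and 1631, so library 1 of HrasG12V shEif2b5 exceeded all HrasG12V shScram libraries and libraries 2 and 3 lay within the range of WT. The differences were 0.25 ± 0.12 and -0.13 ± 0.12 (adjusted p = 0.352 and 0.994).

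Hspa5, BiP, the master chaperone and the usual reporter of the unfolded protein response, was not called in any of the 9 comparisons. It had 379.6, 405 and 405 CPM of RNA in WT shScram, 447, 526 and 512 in HrasG12V shScram and 477, 410.4 and 413 in HrasG12V shEif2b5. HrasG12V shScram lay above WT in all libraries (0.32 ± 0.14, 95% interval 0.03 to 0.61, adjusted p = 0.157) and overlapped HrasG12V shEif2b5 (-0.19 ± 0.14, adjusted p = 0.364, and about 0.00 with the GC and length offset). Its footprints were 1004, 1076 and 1013 CPM, then 1231, 1067 and 1237, then 1073, 951 and 1022. They differed by 0.19 (95% interval -0.04 to 0.43, adjusted p = 0.464) and by -0.22 (-0.45 to 0.02, adjusted p = 0.994), and HrasG12V shScram library 2 lay within the range of WT.

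Dnajb9, which directs BiP to IRE1 and to misfolded chains, had few RNA counts: 31 in all 3 WT shScram libraries together, 82 in HrasG12V shScram and 16 in HrasG12V shEif2b5. In CPM these were 3.64, 2.33 and 2.89, then 7.26, 3.89 and 7.99, then 1.48, 2.84 and 1.88. The HrasG12V shScram libraries were the 3 highest. Dnajb9 fell by 1.67 ± 0.44 with the shRNA (adjusted p = 0.0219), was 1.18 ± 0.40 with HrasG12V (adjusted p = 0.0743), and the shRNA value was -0.96 ± 0.42 with the GC and length offset (adjusted p = 0.177) and -0.88 ± 0.78 against library 2 alone (adjusted p = 0.696). Its footprints, at 15.2 to 20.8 CPM in all 9 libraries, overlapped between the groups.

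Creld2 and Manf, small ER stress proteins that the cell can secrete, had footprint levels above WT in every HrasG12V shScram library, which was not so in RNA. Creld2 footprints were 39.3, 42.2 and 57.3 CPM in WT shScram, 65.1, 60.9 and 69.7 in HrasG12V shScram and 51.5, 50.4 and 51.2 in HrasG12V shEif2b5; HrasG12V shScram was above both groups in all libraries. Neither footprint difference was called (0.50 ± 0.15, adjusted p = 0.108, and -0.36 ± 0.14, adjusted p = 0.994). Its RNA was 60.3, 53.2 and 61.1 CPM, then 54.2, 59.4 and 55.9, then 65.5, 66.0 and 76.1, highest in HrasG12V shEif2b5 (against HrasG12V shScram 0.29 ± 0.15, adjusted p = 0.188). Manf footprints were 141, 128 and 179 CPM, then 216, 185 and 182, then 153, 134 and 192, and its RNA was 96.3, 105 and 110.3 CPM, then 87.6, 112 and 61.1, then 143, 95.4 and 129. The groups separated in Manf footprints between WT shScram and HrasG12V shScram (0.38 ± 0.15, adjusted p = 0.238) and overlapped in RNA (-0.28 ± 0.20, adjusted p = 0.381). Without HrasG12V shScram RNA libraries 1 and 3 that Manf RNA value was 0.10. With the shRNA Manf was 0.52 ± 0.20 in RNA (adjusted p = 0.086) and -0.28 ± 0.15 in footprints (adjusted p = 0.994), with overlap in both.

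The other lumenal members were the J-domain proteins Dnajb11, Dnajc3 and Dnajc10, the BiP exchange factor Hyou1 and Sdf2l1, a partner of Dnajb11. Their RNA differences with HrasG12V were 0.28, 0.18, 0.25, 0.10 and 0.08 and with the shRNA -0.15, -0.20, -0.07, -0.01 and -0.04, in that order, none called. Dnajc3 footprints were 0.27 ± 0.14 higher with HrasG12V, with separate groups (adjusted p = 0.383), and those of Sdf2l1 0.13 ± 0.20. Dnajb11 footprints were 109, 106 and 107 CPM in WT shScram, 122, 111 and 123 in HrasG12V shScram and 93.5, 96.6 and 104 in HrasG12V shEif2b5, 3 groups without overlap, and the shRNA difference of -0.28 had the smallest unadjusted p of the members in that comparison (0.022, adjusted p = 0.994). Dnajc10 footprints, at 138, 94.3 and 94.2 CPM in WT shScram, 99.7, 88.8 and 88.5 in HrasG12V shScram and 97.8, 78.7 and 93.4 in HrasG12V shEif2b5, rested on WT library 1 (-0.24, adjusted p = 0.514, and -0.04 without it). Hyou1 footprints, at 173, 235 and 214 CPM, 232, 198 and 267, and 251, 253 and 254, were 0.12 higher with the shRNA (adjusted p = 0.994).

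Of the isomerases, Erp44 and Pdia4 rose in RNA with HrasG12V, and both fell together with Pdia3 with the Eif2b5 shRNA. Erp44, which retrieves unassembled proteins from the Golgi (chr4:48193323-48279558, minus strand), had 37.2, 52.8 and 57.5 CPM in WT shScram, 79.6, 63.3 and 90.2 in HrasG12V shScram and 48.1, 35.8 and 34.8 in HrasG12V shEif2b5. HrasG12V shScram exceeded both groups in all libraries (0.66 ± 0.19, adjusted p = 0.0437, and -0.98 ± 0.20, adjusted p = 0.0069). With the GC and length offset the Erp44 values were 0.19 ± 0.17 (adjusted p = 0.56) and -0.39 ± 0.17 (adjusted p = 0.174), and against HrasG12V shScram library 2 alone 0.35 (adjusted p = 0.597) and -0.67 (adjusted p = 0.338). Pdia4 (chr6:47796141-47813430, minus strand) had 152, 158 and 167 CPM, then 214, 203 and 242, then 160.3, 157 and 135. Those groups were likewise apart (0.47 ± 0.14, adjusted p = 0.0447, and -0.55 ± 0.14, adjusted p = 0.0174). With the offset they were 0.38 (adjusted p = 0.0763) and -0.41 (adjusted p = 0.0474), and against library 2 alone 0.35 (adjusted p = 0.422) and -0.43 (adjusted p = 0.366). Pdia3, the partner of the lectin chaperones, had 399, 402 and 422 CPM, then 536, 502 and 647, then 406, 358 and 327, with a fall of 0.63 ± 0.15 (adjusted p = 0.0136) and a HrasG12V value of 0.46 ± 0.15 that was not called (adjusted p = 0.0593). The shRNA value was -0.31 (adjusted p = 0.14) with the offset and -0.46 (adjusted p = 0.325) against library 2 alone.

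In footprints these 3 genes overlapped between WT shScram and HrasG12V shScram, with differences of 0.18, 0.05 and 0.10. With the shRNA their footprint values were -0.19, -0.09 and -0.22, and for Pdia3, at 1665, 1506 and 1567 CPM in HrasG12V shScram and 1479, 1237 and 1359 in HrasG12V shEif2b5, the groups were apart. For P4hb the groups were apart in footprints and overlapped in RNA. Its footprints were 829.7, 1045 and 1060 CPM in WT shScram, 1379, 1245 and 1279 in HrasG12V shScram and 1281, 1318 and 1338 in HrasG12V shEif2b5, so both HrasG12V groups were above WT and overlapped each other. Its difference of 0.41 ± 0.12 had the smallest p of any member in the footprint comparison with WT (0.0025, adjusted p = 0.0971; DESeq2 adjusted p = 0.0292), and its RNA, at 563, 587 and 533 CPM in WT shScram and 576, 578 and 599 in HrasG12V shScram, differed by 0.06 ± 0.14. Pdia6 RNA differed by 0.52 ± 0.17 (adjusted p = 0.0707) and -0.40 ± 0.17 (adjusted p = 0.122), and Ppib by 0.24 and -0.17. Over the 6 isomerases the RNA medians were 0.47 and -0.47. The lectins Calr and Canx, which hold glycoproteins during folding, were 0.17 and 0.30 in RNA and 0.26 and 0.18 in footprints with HrasG12V, with separate groups in both kinds of library, and none was called. Calr footprints, for example, were 1141, 1273 and 1059.8 CPM in WT shScram and 1448, 1298 and 1413 in HrasG12V shScram, and 1366, 1255 and 1221 in HrasG12V shEif2b5.

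None of the 3 sensors or transcription factors was called. Xbp1 had 102, 105 and 79.7 CPM of RNA in WT shScram, 127, 115 and 95.2 in HrasG12V shScram and 77.4, 97.5 and 116.5 in HrasG12V shEif2b5, groups that overlapped (0.24 ± 0.17, adjusted p = 0.396, and -0.21 ± 0.17, adjusted p = 0.425). Xbp1 footprints were 76.7, 75.04 and 59.3 CPM, then 74.9, 62.0 and 60.1, then 55.7, 48.0 and 53.0, lowest in all 3 HrasG12V shEif2b5 libraries. The footprint difference was -0.33 ± 0.14 against HrasG12V shScram (adjusted p = 0.994) and -0.43 ± 0.14 against WT shScram (adjusted p = 0.155), and the latter passed without WT shScram footprint library 3 (adjusted p = 0.0373).

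Atf6 RNA was 27.1, 32.2 and 27.5 CPM in WT shScram, 34.2, 26.6 and 38.6 in HrasG12V shScram and 22.6, 26.6 and 25.8 in HrasG12V shEif2b5, with differences of 0.23 ± 0.18 and -0.43 ± 0.19 (adjusted p = 0.467 and 0.133). The first turned to -0.11 without HrasG12V shScram libraries 1 and 3. Atf6 footprints were 38.5, 40.8 and 31.8 CPM, then 31.7, 36.6 and 32.0, then 34.4, 29.7 and 28.3, and overlapped (-0.15 and -0.12). Ern1, IRE1, had 17.4, 23.7 and 15.4 CPM of RNA, then 16.8, 17.8 and 24.0, then 20.7, 24.8 and 15.03, with no order among the groups (0.09 ± 0.24 and 0.05 ± 0.24). Its footprints were 11.4, 10.7 and 10.3 CPM, then 11.6, 12.8 and 13.4, then 9.65, 12.04 and 10.01. HrasG12V shScram lay just above WT shScram in all 3 (0.23 ± 0.21, adjusted p = 0.681) and overlapped HrasG12V shEif2b5 (-0.26 ± 0.20, adjusted p = 0.994). Leaving out single libraries or libraries 1 and 3 moved the Ern1 RNA values across 0.

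The 6 factors of ER-associated degradation had a median RNA difference of 0.04 with HrasG12V, the lowest of the 6 roles, and -0.13 with the shRNA, and none was called. Herpud1, which gathers the degradation complex and is itself an unfolded protein response target, had 60.3, 70.3 and 48.3 CPM of RNA in WT shScram, 34.7, 67.2 and 49.9 in HrasG12V shScram and 64.8, 42.9 and 45.1 in HrasG12V shEif2b5. Its footprints were 62.7, 70.3 and 38.8 CPM, then 44.8, 45.1 and 43.0, then 44.9, 54.4 and 56.3, and WT library 3 was the lowest of all 9. Herpud1 had the lowest footprint value of the members with HrasG12V (-0.37 ± 0.18, adjusted p = 0.352) and the highest with the shRNA (0.23 ± 0.18, adjusted p = 0.994), and without WT shScram library 3 the first was -0.60 (adjusted p = 0.022). Derl1 and Derl2, channel-like proteins of retrotranslocation, had RNA values of 0.38 and 0.43 with HrasG12V and -0.38 and -0.73 with the shRNA (adjusted p = 0.143 and 0.0936). Edem1, the adaptor Sel1l and its ligase Syvn1 lay between -0.01 and 0.06 with HrasG12V and between -0.15 and -0.05 with the shRNA.

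Translation efficiency, the change in footprints beyond that in RNA, was tested as the interaction of condition and library kind over all 18 libraries and 10793 genes. With HrasG12V against WT shScram no member was called by edgeR (1.17% of genes were, 1.02% lower), 2 members had an unadjusted p under 0.05 on the high side (5.77% of genes) and 5 on the low side (10% of genes), and DESeq2 called 1. The median was -0.14 over the members and -0.02 over all genes. Ssr2 was -0.81 ± 0.22 (adjusted p = 0.0558), Ssr4 -0.76 ± 0.23 (adjusted p = 0.0902), Dnajb9 -1.10 ± 0.37 (adjusted p = 0.144), Manf 0.67 ± 0.26 (adjusted p = 0.203) and Creld2 0.55 ± 0.20 (adjusted p = 0.177). Hspa5, Xbp1, Atf6 and Ern1 were -0.12, -0.34, -0.38 and 0.15, none called.

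With the Eif2b5 shRNA against HrasG12V shScram, translation efficiency rose in 3 members and no member was called lower (2.11% of genes were called, 1.8% higher). These were Ssr4 (1.07 ± 0.23, adjusted p = 0.02), Ssr2 (0.90 ± 0.22, adjusted p = 0.0315) and Dnajb9 (1.55 ± 0.41, adjusted p = 0.0441), for each of which footprints moved by -0.16, -0.03 and -0.13 while RNA fell. Manf (-0.81 ± 0.26, adjusted p = 0.0903) and Creld2 (-0.66 ± 0.20, adjusted p = 0.0782) were lowest. The median was 0.13, beside 0.03 over all genes, and Hspa5, Xbp1, Atf6 and Ern1 were -0.03, -0.12, 0.31 and -0.32. With a block of same-numbered footprint and RNA libraries, a fit chosen after seeing the data, Ssr4 and Ssr2 were called higher, Dnajb9 was 1.54 ± 0.45 and not called (adjusted p = 0.0573), and Manf fell by 0.83 ± 0.21 (adjusted p = 0.0377). Against HrasG12V shScram RNA library 2 alone none of the 3 was called: Ssr4 was 0.48 ± 0.25 (adjusted p = 0.682), Dnajb9 0.75 ± 0.62 (adjusted p = 0.815), and Ssr2, at 0.82 ± 0.27 (adjusted p = 0.425), stayed near its value with all libraries. The median over members was then -0.013, and 0.055 with the GC and length offset, where Dnajb9 was 1.00 ± 0.38 (adjusted p = 0.188). Of 12 fits without 1 library the count was 0 without RNA libraries 1 or 3 of HrasG12V shScram, RNA library 3 or footprint library 3 of HrasG12V shEif2b5 or footprint library 3 of HrasG12V shScram, 1 without footprint libraries 1 or 2 of HrasG12V shScram or RNA library 1 of HrasG12V shEif2b5, and 7 without RNA library 2 of HrasG12V shScram.

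Comparing HrasG12V shEif2b5 with WT shScram, no member was called in any readout by edgeR. In RNA the median was 0.01, 0.324% of genes were called and DESeq2 called 0 members. The only member with an unadjusted p under 0.05 (3.43% of genes on the high side) was Sec61b, with 77.7, 81.2 and 60.9 CPM in WT shScram and 95.1, 88.3 and 114 in HrasG12V shEif2b5, groups apart by 0.44 ± 0.16 (adjusted p = 0.423). Creld2 was 0.24, with separate groups, Erp44 -0.32 and Ssr2 -0.25, and Dnajb9 was lowest (-0.49 ± 0.49). Hspa5, Xbp1, Atf6 and Ern1 were 0.13, 0.03, -0.21 and 0.14. In footprints the median was -0.03, 0.97% of genes were called, 2 members were higher (7.94% of genes) and 1 lower (6.46%) at an unadjusted p under 0.05, and DESeq2 called 1, P4hb. P4hb was 0.42 ± 0.12 (adjusted p = 0.0964), Hyou1 0.29 ± 0.13 (adjusted p = 0.331), Xbp1 as given above and Dnajc10 -0.27 ± 0.15 (adjusted p = 0.424), while Hspa5, Atf6 and Ern1 were -0.02, -0.27 and -0.03. Without WT shScram footprint library 3, P4hb and Xbp1 were called. In translation efficiency 0% of genes and 0 members were called, the latter also by DESeq2, and Sec61b was lowest (-0.59 ± 0.21, unadjusted p = 0.01, a threshold of 0.05 that 2.46% of genes passed on the low side, adjusted p = 0.806). Ssr1 was 0.27, P4hb 0.26, Xbp1 -0.46, Hspa5 -0.15, Atf6 -0.06 and Ern1 -0.17. The libraries are those of the other comparisons, so the values are not independent of them.

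Most of the members called in RNA had no exact match to ERSE or ERSE-II in the promoter window, and neither did most members with a promoter. Only exact letters in that window were searched, so a variant or an element elsewhere would be missed. Of 10 members with an ERSE or ERSE-II, 1 (Hsp90b1) was called higher with HrasG12V, and of 18 with neither, 4 were, beside 4.65% of all genes; the medians were 0.23 and 0.27. With the shRNA 0 of 10 and 6 of 18 were called lower (7.79% of all genes), with medians of -0.18 and -0.19. In footprints the medians were 0.19 and 0.12 with HrasG12V and -0.15 and -0.14 with the shRNA, and the groups of libraries were separate and higher with HrasG12V in 6 of 10 and 6 of 18 (10.4% of all genes). The difference between these sets was not tested. Ssr2 was among the 6 members without a matched promoter.

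Other genes of the secretory pathway were read from 5 lists of 99 genes in all, 98 of them in the table. In the list of translocation and signal peptide processing, 2 of 17 tested genes rose in RNA with HrasG12V (4.65% of all genes), Sec61g, the third subunit of the channel (1.06 ± 0.20, adjusted p = 0.00557), and Spcs1, a signal peptidase subunit (0.86 ± 0.20, adjusted p = 0.0187). With the shRNA 5 of 17 fell (7.79% of all genes), among them Spcs1 (-1.12), Sec61g (-0.97) and Sec61a2, a second form of the pore subunit (-0.90). The median of this list was 0.31 and -0.18. In the N-glycosylation and lectin cycle list, the counts were near the shares of all genes: 1 of 17 rose with HrasG12V, Ostc, an oligosaccharyltransferase subunit (0.95 ± 0.21, adjusted p = 0.0156), and 2 of 17 fell with the shRNA, Ostc (-0.98) and Stt3a, a catalytic subunit (-0.98). In translation efficiency Spcs1 fell with HrasG12V (-1.04, adjusted p = 0.0462) and rose with the shRNA (0.99, adjusted p = 0.048), where Ostc also rose (1.01, adjusted p = 0.0347). Both comparisons use the same HrasG12V shScram libraries, so a deviation of those libraries enters both with opposite sign. No alternative fit is given here for genes outside the members.

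Of 21 other folding factors tested in RNA none was called by edgeR with HrasG12V, 2 being higher and 2 lower at an unadjusted p under 0.05 (13.8% and 11.5% of all genes), and 3 rose with the shRNA (5.23% of all genes), Cnpy4 (0.65), Fkbp2 (0.69) and Dnajc1 (0.57). Among 19 other degradation factors 0 were called with HrasG12V (3 higher and 2 lower at an unadjusted p under 0.05). Vimp rose with the shRNA (0.64 ± 0.19, adjusted p = 0.0372), where 5.23% of all genes were called higher. The list of other sensors and regulators held the only footprint calls, those of Atf4, the transcription factor translated when eIF2 is phosphorylated. Atf4 footprints rose with HrasG12V from 22.3 ± 9.14 to 47.7 ± 5.18 CPM (1.09 ± 0.23, edgeR adjusted p = 0.0272, with 1.7% of all genes called). They were 51.3 ± 10.7 CPM in HrasG12V shEif2b5 (1.20 ± 0.23 against WT shScram, edgeR adjusted p = 0.0257, with 0.97% of all genes called). Against HrasG12V shScram the difference was 0.10 (edgeR adjusted p = 0.994). Atf4 RNA and translation efficiency are not given here, so the footprint rise is not separated from a change in RNA. Ddit3, CHOP, had 1.47 ± 1.08 CPM of footprints in HrasG12V shScram and 1.97 ± 0.732 in WT shScram, not called. In RNA, Nfe2l2 rose (0.92) and Creb3l1 fell (-0.95) with HrasG12V, where 7.7% of all genes were called in either direction. With the shRNA, where 13% of all genes were called, Trib3, a target of ATF4 and CHOP, rose (0.98 ± 0.25, adjusted p = 0.0175). Mbtps2, the protease that completes ATF6 cleavage, fell (-1.03), as did Tmbim6 and Nfe2l2 (-0.58 and -0.59).

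Marker sums of some cell types were apart between groups, and those of others overlapped. Melanocyte markers, 6 of 6 in the table and none at 0, summed to 579.6 to 711 CPM in HrasG12V shScram RNA, 373 to 540.1 in WT shScram and 455 to 567 in HrasG12V shEif2b5. Basal keratinocyte markers summed to 8569 to 11860 CPM in HrasG12V shScram, below WT shScram (12726 to 17141) and HrasG12V shEif2b5 (13318 to 15461), and Merkel cell markers, 6 of 6 above 0, to 16.1 to 20.7 CPM against 26.8 to 33.0 and 20.9 to 24.0. Dermal fibroblast markers, 7 of 7, overlapped between all groups (359 to 2123, 520.2 to 1057 and 469 to 566 CPM), and the immune, endothelial and erythroid lists reached at most 22.1, 12.1 and 21.6 CPM in RNA, with Cd207, Hba-a1, Hbb-bs and Hbb-bt at 0 in every library. Spinous markers summed to 34049 to 62596 CPM in HrasG12V shScram, 64909 to 97934 in WT shScram and 46068 to 59109 in HrasG12V shEif2b5. In footprints Merkel cell markers summed to 17.8 to 30.5 CPM in HrasG12V shScram, below the 35.7 to 50.6 of WT shScram, and to 22.3 to 36.3 in HrasG12V shEif2b5. Basal keratinocyte markers summed to 13513 to 15561 CPM of footprints in HrasG12V shEif2b5, above WT shScram (8773 to 13023), and to 10231.5 to 14422 in HrasG12V shScram, which overlapped both. Footprint sums of the spinous, dermal fibroblast and melanocyte lists overlapped between all groups. Granular and cornified layer markers, 6 of 7 in the table, overlapped between all groups in both RNA and footprints. Base composition differed too: the 6 members called with HrasG12V had a median coding GC content of 48.1% and a median coding length of 1038 bases, against 51.3% and 1382 bases for the other 28 and 53.2% and 1425 bases over 11047 tested genes with a coding sequence. The part of these markers, of depth and of base composition in the RNA and footprint results was not tested beyond the fits given above.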

How the data were processed

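Ribosome footprint and RNA reads from 18 libraries of mouse epidermal cells were analysed as counts per gene over coding sequences, which the authors deposited in 1 table; per the submitters' processing notes the tools were Bowtie, TopHat2 and HTSeq with the mm10 build. Versions, strandedness and read filters are not given in the sources used here, so overlapping or antisense genes may share reads. TMM scaling was done separately for footprints and RNA, and counts were filtered with filterByExpr (minimum count 10, total 15) and fitted by edgeR 4.0.16 (R 4.3.3) with the robust quasi-likelihood test over all 3 conditions, p-values being adjusted by Benjamini-Hochberg over all genes tested and called under 0.05. All 34 members passed the filter in all 9 comparisons. Translation efficiency was the interaction of condition and library kind over genes passing in both kinds. The typical biological coefficient of variation was 0.14 in footprints and 0.162 in RNA, and with 3 libraries a group an exact permutation test cannot go below 0.1. CPM are TMM-scaled, and RPKM divide them by the coding length in GENCODE M21, where 99.3% of rows matched. Alternatives were DESeq2 1.42.0, its size factors, other filters, only the conditions compared, a replicate block, an offset for coding GC content and length, and leaving out libraries. The procedure was tested on simulated counts with the same spread for all genes and no library effect of GC content or length. That simulation does not show how such effects move the calls. Genes given in full were Hspa5, Xbp1, Atf6 and Ern1, each called member, and per comparison the 2 members with the smallest p in each direction; other members are given more briefly, and Ssr3, Pdia3 with HrasG12V, Derl1 and others were named to account for every member. From each pathway list up to 3 called genes per comparison with the smallest p were named. The members and lists were chosen with earlier results of these data known.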

Additional observations from a re-analysis of the deposited data

How the results depend on the processing

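The number of members called changed with the processing. In the fits given below, the median over members kept its sign in RNA and changed sign in translation efficiency with the shRNA. In RNA that median was 0.24 with HrasG12V and -0.20 with the shRNA, and 0.21 and -0.14 with the GC and length offset. In translation efficiency with the shRNA it went from 0.13 to 0.055 with the offset and to -0.013 without the 2 deep libraries, a shift about as large as the spread between libraries (0.14). The fits that keep only the RNA libraries other than the 3 deepest, add a depth class, block same-numbered footprint and RNA libraries, or combine the offset with a replicate block were chosen after seeing the data. For RNA, HrasG12V shScram against WT shScram (6 called), the count was 2 with only those conditions, 2 with a replicate block, 2 with the GC and length offset, 1 with block and offset, 0 without the 2 deep HrasG12V libraries and 0 in the shallower libraries; leaving out 1 library gave 1 to 10. For RNA with the shRNA against HrasG12V shScram (7 called) it was 3 with the offset, 2 with block and offset, 3 with the depth class, 0 without the 2 deep libraries and 1 in the shallower ones, and 2 to 11 with 1 library left out. For footprints DESeq2 called 1 in each HrasG12V group against WT shScram, and leaving out 1 library gave 0 to 4 in HrasG12V shScram and 0 to 2 in HrasG12V shEif2b5. For translation efficiency with HrasG12V (0 called) the count was 1 with no filter, 1 with at least 10 CPM, 1 with DESeq2, and 0 to 4 with 1 library left out. With the shRNA (3 called) it was 6 with DESeq2, 1 with the replicate block, 1 with block and offset, 0 without the 2 deep libraries, 0 with the depth class, 0 in the shallower libraries, and 0 to 7 with 1 library left out. Causes were not tested. Shares of all genes called in the alternative fits, here and above, are not given, so these counts describe the members only. The replicate numbers did not consistently pair libraries of different conditions. Same-numbered deviations correlated above 0.1 in 2 of 9 RNA pairs (-0.398 to 0.393) and 2 of 9 footprint pairs (-0.179 to 0.344). Both of those RNA pairs were of WT shScram with HrasG12V shScram, numbers 2 (0.285) and 3 (0.393), while number 1 was at -0.0964. Between the footprint and RNA libraries of a condition 7 of 9 pairs were above 0.1 (-0.00268 to 0.347) and 7 of 9 correlated best with their own number. A replicate block of those libraries called 3 members in translation efficiency with the shRNA, as without it, but Manf, lower (-0.83), in place of Dnajb9.

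Small differences changed sign, none of them called. In RNA with HrasG12V, without the 2 deep libraries, Manf was 0.10, Herpud1 0.19, Atf6 -0.11 and Ern1 -0.051, and in the shallower libraries 0.15, 0.044, -0.15 and -0.21. In RNA with the shRNA, Hspa5 was 0.0025 with the offset and 0.0073 with block and offset, and Ern1 -0.098, -0.060 and -0.14 with the offset, the depth class and block with offset. In RNA of HrasG12V shEif2b5 against WT shScram, Xbp1 was -0.023, -0.039, -0.086 and -0.021 with the offset, the depth class, the shallower libraries and block with offset, and Ern1 -0.0012 in the shallower libraries. For translation efficiency, Ern1 was -0.018 with HrasG12V (block with offset). With the shRNA, Xbp1 was 0.051, 0.031 and 0.053 (offset, depth class, block with offset), Hspa5 0.062, 0.00087 and 0.062 and Atf6 -0.026 and -0.026 (without deep libraries, depth class for Hspa5 only, shallower libraries). Leaving out 1 library, RNA values of Ern1 ran from -0.11 to 0.27 with HrasG12V, -0.12 to 0.25 with the shRNA and -0.037 to 0.33 between shRNA and WT, where Xbp1 ran from -0.12 to 0.17. Footprints of HrasG12V shEif2b5 against WT gave Ern1 -0.13 to 0.033 and Hspa5 -0.065 to 0.024. Translation efficiency gave Ern1 -0.041 to 0.34 with HrasG12V, Hspa5 -0.096 to 0.042 and Xbp1 -0.27 to 0.021 with the shRNA, and Atf6 -0.17 to 0.014 and Ern1 -0.36 to 0.0042 against WT. Low RNA counts limit Dnajb9, with 16 to 82 per group.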
